A study of Mus musculus with 4 samples.

Results

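The 5 genes 2310057J18Rik, Pcp4, Aoc1, Dio2 and Mb21d2 were examined in mammary tumors that formed with and without St6gal1, the enzyme that links sialic acid to N-glycans in the alpha2-6 position. They were proposed as genes that rose at least 2-fold in the null tumors of both sets and that belong to no common cell type list. Every probe set annotated to exactly 1 of these symbols was taken, which gave 8 probe sets of 45101, for 5 of 18194 genes named by a probe set with 1 symbol. Of the 8 probe sets, 5 were bright enough to be tested, 1 for each gene. The data went against the proposal for Mb21d2: the measured signal of its tested probe set was lower in the null tumors of both sets, while that of the other 4 genes was higher. The measured log2 ratios passed 2-fold in both sets for all 5, but where a genotype was at background only the smaller bounds given below hold. The genes were chosen by these same signal differences between genotypes, which are therefore given as a description with no test.

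There were 4 arrays, each with a pool of 3 mammary tumors from 3 female C57BL/6 mice aged 110 days, taken 14 days after tumor onset. Tumors in all groups were driven by the polyoma virus middle T oncogene (PyV-mT), and the sources used here do not give its promoter. The groups were 2 pools from St6gal1-/- mice and 2 pools from wild-type littermates, hybridised as set 1 and set 2 with 1 pool of each genotype per set. A pool hides the spread between animals, and the sources used here do not say which stretch of St6gal1 is deleted.

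Dio2 encodes the type 2 deiodinase, which turns the prohormone thyroxine into active triiodothyronine inside cells and is well known in brown fat, where cyclic AMP induces it. Aoc1 encodes diamine oxidase, a secreted copper enzyme that breaks down histamine and the polyamine putrescine. Pcp4 encodes a small protein, also called PEP-19, that binds calmodulin and changes how it binds calcium, and is best known from Purkinje neurons. 2310057J18Rik, also listed as Leg1 in the gene table, encodes a protein whose human counterpart is found in saliva and whose zebrafish counterpart is needed for liver growth. Mb21d2 encodes a protein of the Mab21 family, which also holds cGAS, the enzyme that senses DNA in the cytosol.

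The RefSeq promoters (build GRCm38.p6) of 3 of the genes are shown as a description. Mb21d2 stood out with 82.7% G+C, against a median of 52.7% over all promoters. Those of the other 4 genes held from 40.7% to 53.0%. With 1 lower gene, a link between base composition and direction was not tested. Each promoter runs from 250 bases before to 50 after the start. Capitals mark the motif TGACGTCA, the cyclic AMP response element, and the TATA box TATAAA in Dio2. They mark CCAAT in 2310057J18Rik and the GC box GGGCGG, on either strand, in Mb21d2.
Dio2, chr12:90738989-90739288, minus strand: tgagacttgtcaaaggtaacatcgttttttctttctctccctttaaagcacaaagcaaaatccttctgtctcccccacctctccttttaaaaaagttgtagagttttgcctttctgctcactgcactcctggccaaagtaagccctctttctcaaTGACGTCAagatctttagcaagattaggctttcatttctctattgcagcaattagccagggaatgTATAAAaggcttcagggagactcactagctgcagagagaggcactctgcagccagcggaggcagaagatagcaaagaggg
2310057J18Rik, chr10:28986257-28986556, minus strand: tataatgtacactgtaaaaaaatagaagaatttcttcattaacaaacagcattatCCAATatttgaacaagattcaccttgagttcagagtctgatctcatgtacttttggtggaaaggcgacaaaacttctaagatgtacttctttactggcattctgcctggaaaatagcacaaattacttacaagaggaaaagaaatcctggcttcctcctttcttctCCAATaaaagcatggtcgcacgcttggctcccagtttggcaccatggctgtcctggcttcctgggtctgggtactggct
Mb21d2, chr16:28929649-28929948, minus strand: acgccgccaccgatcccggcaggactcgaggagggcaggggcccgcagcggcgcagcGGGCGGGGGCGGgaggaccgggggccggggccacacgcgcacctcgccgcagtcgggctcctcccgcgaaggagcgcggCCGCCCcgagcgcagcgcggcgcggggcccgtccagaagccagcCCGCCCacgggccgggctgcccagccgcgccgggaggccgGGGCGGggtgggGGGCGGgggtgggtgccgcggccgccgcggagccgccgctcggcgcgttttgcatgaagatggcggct
The Dio2 promoter held 1 TGACGTCA, starting at base -95 from the start of transcription, and 1 TATAAA at base -30. Among all 32851 promoters of the table, 1.79% held TGACGTCA and 13.6% held TATAAA, searched on both strands. The 2310057J18Rik promoter held CCAAT at bases -195 and -29, as did 37.4% of promoters at any place. The Mb21d2 promoter held 6 copies of GGGCGG, a motif found in 35.7% of promoters, and 50 CG dinucleotides, more than 99.1% of promoters. The 2310057J18Rik and Dio2 promoters held 3 CG dinucleotides each and that of Pcp4 held 6, against a median of 7. Aoc1 has 2 promoters in the table, with 3 and 4 CG dinucleotides and none of the motifs searched. Pcp4 held 1 CCAAT on the minus strand, within the 50 bases after the start. The E-box CACGTG (in 7.15% of promoters), the nuclear receptor motif AGGTCA (in 16.3%) and the STAT motif TTCNNNGAA (in 8.3%) were searched as well on both strands, and of these there was 1 AGGTCA in the Pcp4 promoter and no match in the other genes. A match describes these letters and does not show that a factor binds.

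The deposited values were probe set signals of the MAS5 method, scaled per array. Because the animals were female, the highest signal of 16 Y-linked probe sets, 585 (Uba1y), was taken as an unspecific level, and signals at or below it were not told from background. Median signals were 588 and 591 in the null pools, against 619 and 593 in the wild-type pools. For Gapdh the 3' over 5' signal, a measure that goes up as RNA degrades, was 0.873 and 2.13 in the null pools of sets 1 and 2, against 0.869 and 1.57 in the wild-type pools. The brighter St6gal1 probe set read 2337 and 3642 in the null pools and 2330 and 2796 in the wild-type pools (log2 ratio 0.19 ± 0.16, SE, limma adjusted p = 0.563). That probe set may lie outside the deleted part, so the directions rest on the labels.

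2310057J18Rik was higher in the null tumors, with signals of 35148 and 44980 in the null pools against 4504 and 6207 in the wild-type pools. Every array lay above the unspecific level. The genotypes did not overlap, but the gene was chosen by this difference, so nothing is read from that. The log2 ratio, taken on log2(signal + 44), was 2.95 in set 1 and 2.85 in set 2, and 2.90 ± 0.09 (limma SE, n = 2 pools per genotype) over both, or 7.47-fold. By the smaller of its ratios in the 2 sets it ranked 2 among 22519 tested probe sets. The probe set carries the suffix that marks probes shared by several transcripts, so a close relative could add to its signal. In these whole tumors more cells of a type and more RNA per cell cannot be told apart, for this gene and for all that follow.

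Pcp4 signals were 5780 and 6916 in the null pools against 1378 and 1530 in the wild-type pools. All 4 arrays lay above the unspecific level and the genotypes were well apart, a description of a gene chosen by this difference. The log2 ratio was 2.03 in set 1 and 2.15 in set 2, and 2.09 ± 0.14 over both, or 4.26-fold.

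Dio2 read 1950 and 2385 in the null pools against 355 and 366 in the wild-type pools on its tested probe set, 1418937_at. Both wild-type arrays lay within the unspecific level, so only a bound can be stated: Dio2 was at least 3.69-fold higher in the null tumors. The measured log2 ratio was 2.32 in set 1 and 2.57 in set 2 (2.44 ± 0.28 over both). The other Dio2 probe sets did not show this difference. On 1418938_at the signals were 227 and 754 in the null pools against 572 and 713 in the wild-type pools, overlapping between genotypes. On 1426081_a_at they were 413 and 433 in the null pools against 319 and 23 in the wild-type pools, all within the unspecific level. The rise in Dio2 signal therefore rests on 1 of 3 probe sets, and the sources used here do not say which part of the transcript each one reads.

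Aoc1 read 1728 and 1560 in the null pools against 97 and 380 in the wild-type pools. Both null arrays were above the unspecific level and both wild-type arrays were within it, a bound of at least 2.81-fold higher. The log2 ratio was 3.65 in set 1 and 1.92 in set 2, a gap that lay in the wild-type pools, which differed by 1.58 between sets against -0.14 for the null pools, and so rests on signals not told from background. Over both sets it was 2.78 ± 0.40, the widest error of the 5 genes.

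Mb21d2 read 455 and 341 in the null pools against 1275 and 950 in the wild-type pools on its tested probe set, 1439014_at. Here the null arrays were the ones within the unspecific level, and the gene was at least 1.88-fold lower in the null tumors. Its log2 ratio was -1.40 in set 1 and -1.37 in set 2, and -1.38 ± 0.32 over both. The second probe set, 1444210_at, read 24 and 93 in the null pools against 67 and 343 in the wild-type pools, all within the unspecific level.

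**Figure D1:**
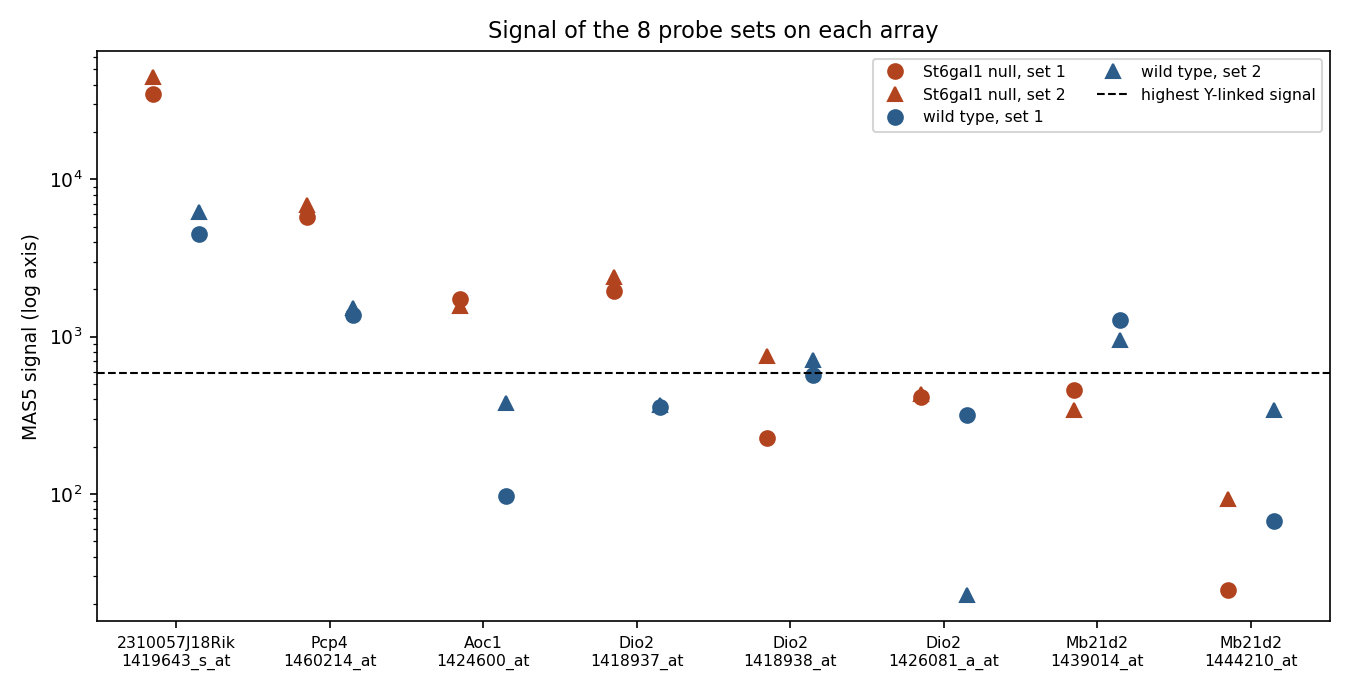
MAS5 signal on a log axis for the 8 probe sets of the 5 genes, with St6gal1 null pools in red left of wild-type pools in blue, set 1 as circles, set 2 as triangles, and the highest Y-linked signal, 585, as a dashed line. The null pools are clearly higher for 4 tested probe sets and lower for Mb21d2 1439014_at.

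The 2-fold limit in both sets was passed upward by 0.795% and downward by 0.315% of the tested probe sets. The 4 higher genes and Mb21d2 were taken from these shares by the rule, so nothing is read from their number. The nearest named gene just inside the 2-fold limit was Ndufaf6, with log2 ratios just over 1 in set 1 and of 1.17 in set 2, and the nearest just outside was Ebf1, with 1.23 in set 1 and just under 1 in set 2. On the lower side Grip1 was just inside, with -1.16 in set 1 and just past -1 in set 2, and Lair1 just outside, with -0.99 in set 1 and -1.99 in set 2. Among the 5 genes the closest to the limit was Mb21d2, and the others had ratios of 1.92 or more in each set.

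**Figure D2:**
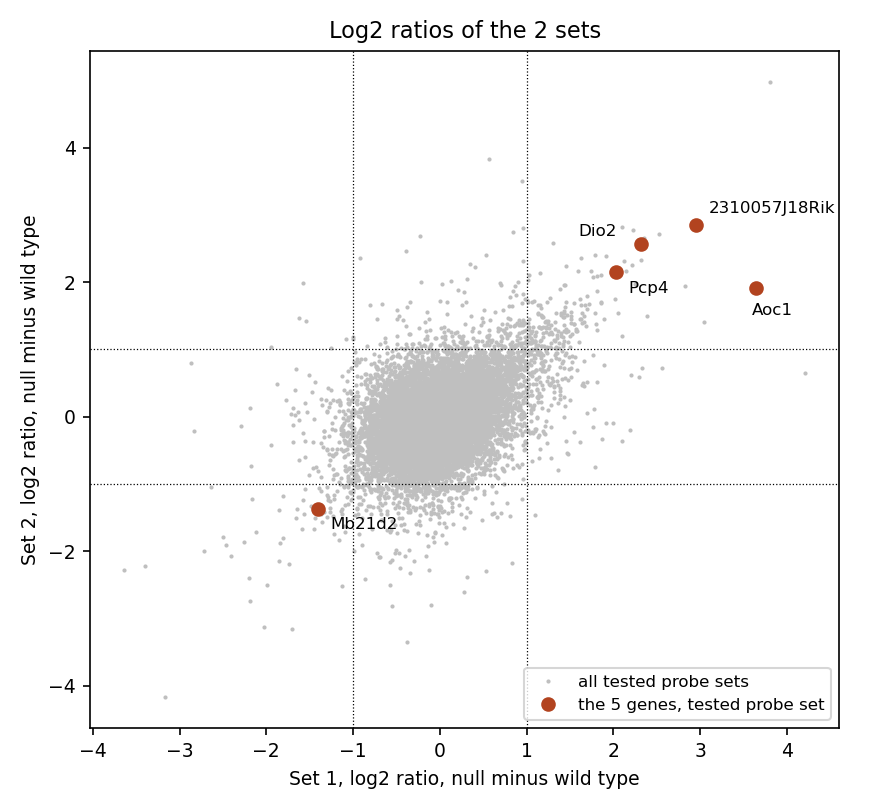
Log2 ratio of St6gal1 null over wild type in set 1 (horizontal) and set 2 (vertical) for all tested probe sets in grey and the tested probe set of each of the 5 genes in red, with dotted lines at 2-fold. The 4 higher genes lie in the upper right corner, with Aoc1 farther right than up (3.65 and 1.92), and Mb21d2 lies in the lower left corner.

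The difference between set 2 and set 1 was not part of how the genes were chosen and could be tested in the same limma fit. 2310057J18Rik was higher in set 2 by a log2 difference of 0.41 ± 0.09 (adjusted p = 0.00361), in the null pools by 0.36 and in the wild-type pools by 0.46. Without the intensity trend this call was lost (adjusted p = 0.15). Pcp4 did not pass (0.20 ± 0.14, adjusted p = 0.347). For Aoc1, Dio2 and Mb21d2 no set difference is read, because both arrays of 1 genotype lay within the unspecific level and the difference would partly compare background signals. The set moved 23.5% of all tested probe sets past the threshold of 0.05, with 11.1% higher and 12.4% lower in set 2, so a call is common there.

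Genes that work with the 5 genes, or share their function, were counted next. In lists of secretions, thyroid hormone handling, polyamines and histamine, calmodulin, and the Mab21 family, 53 genes were tested, 8 rose and 4 fell in the null tumors (limma adjusted p under 0.05). Over all placed genes, each by its brightest tested probe set, 5.16% rose and 3.54% fell. Over all tested probe sets 7.36% were called, 4.09% as higher and 3.27% as lower. Without the set term, or without the intensity trend, limma called 0 of the 53 (8 and 14 at an unadjusted p under 0.05). With any 1 of the 4 arrays left out it also called 0 (from 5 to 9 at an unadjusted p under 0.05).

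Secreted proteins of salivary, lacrimal and mucosal glands, the group set beside 2310057J18Rik, had the most calls. Of 9 tested, 5 rose and limma called 0 lower (0 also at an unadjusted p under 0.05), with a median log2 ratio of 0.87 against -0.03 over all tested probe sets, and 8 were higher in both sets. Pip, encoding the prolactin-induced protein of secretory glands, read 5445 and 4420 in the null pools against 1727 and 1582 in the wild-type pools, a 2.92-fold rise. Prol1, encoding a proline-rich secreted protein, read 3951 and 3861 in the null pools against 1606 and 1852 in the wild-type pools, 2.23-fold. Car6, the carbonic anhydrase secreted into saliva and milk, read 43290 and 62094 in the null pools against 21998 and 30702 in the wild-type pools, 1.99-fold. Pigr, the receptor that carries IgA across epithelia, rose 2.01-fold, with 15375 and 25274 in the null pools against 8119 and 11760 in the wild-type pools. Aqp5, a water channel of gland cells, rose 1.25-fold. The genotypes did not overlap for Pip, Prol1, Car6 and Pigr. For Aqp5 they did, since the null pool of set 1 (58559) lay below the wild-type pool of set 2 (59397), and the rise was seen within each set. How many of all probe sets show no overlap, or are higher in both sets, was not counted, so nothing is read from either. Ltf and Lyz1, encoding lactoferrin and lysozyme, did not pass, at log2 ratios of 0.23 and -0.06. A second tested probe set of Lyz1 was at -1.10.

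Several defining salivary genes were at background. Bpifa1, Bpifa2, Dcpp1, Smr3a and Muc5b, 5 of the 15 listed genes with a probe set, lay within the unspecific level on all 4 arrays. The summed signal of the 15 genes was 274387 and 370510 in the null pools against 227420 and 281923 in the wild-type pools. Luminal epithelial markers gave 3 rises and 0 falls among 10 tested (5 higher and 3 lower at an unadjusted p under 0.05). Over all placed genes 5.16% rose and 3.54% fell. The 3 that rose were Prom1 at 2.28-fold, Pgr at 1.64-fold and Krt19 at 1.29-fold. Of the 10, 5 were higher and 5 lower in both sets, with a median log2 ratio of 0.07. Those lower in both sets were Esr1 (-0.40), Gata3 (-0.26), Epcam (-0.18), Elf5 (-0.12) and Cdh1 (-0.08), and none of them passed. The summed signal of the 10 luminal markers was 500061 and 523063 in the null pools against 463952 and 438642 in the wild-type pools. Of 6 milk genes tested Lalba rose 1.36-fold, while Wap fell by 1.10 and Btn1a1 by 0.61 on the log2 scale, and Csn2, Glycam1 and Csn1s2b lay within the unspecific level. Summed milk gene signals were 288531 and 445897 in the null pools against 310088 and 378038 in the wild-type pools. The part of these cell types in the 2310057J18Rik signal was not tested.

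Among thyroid hormone genes, 16 tested, 1 rose and 2 fell. Me1, encoding malic enzyme, a target of the hormone in liver, read 21162 and 25786 in the null pools against 15071 and 14537 in the wild-type pools, 1.58-fold. Rxra, the receptor partner, fell by 0.37 and Klf9, a target gene, by 0.33 on the log2 scale. Limma called 1 of these falls under cyclic loess and 0 with no filter on dim probe sets, where 10 of the related genes were lower at an unadjusted p under 0.05. The second Rxra probe set was at 0.08, so it did not share this fall. Thra, the receptor gene with a tested probe set, had a log2 ratio of 0.00 ± 0.12 and did not pass, and Thrsp, another target, was at -0.28 ± 0.08 (adjusted p = 0.0625). The 5 tested genes of deiodinase turnover and selenoprotein synthesis other than Usp20, namely Usp33, Marchf6, Wsb1, Secisbp2 and Sephs2, lay between -0.16 and 0.28 by their brightest probe sets and did not pass, nor did Usp20 at -0.36. A second tested probe set of Marchf6 was at -2.24, against -0.16 for the brightest. Dio1, the liver and kidney deiodinase, and Slco1c1 and Crym lay within the unspecific level on all arrays. Ttr, which carries thyroxine and was chosen here after its values were seen, was too dim to be tested and read 1061 and 1042 in the null pools against 317 and 225 in the wild-type pools, at least 1.80-fold higher. Fitted with no filter on dim probe sets, where 1.72% of probe sets rose and 1.28% fell, its adjusted p was 0.0408. That p rests on wild-type signals within the unspecific level and does not test the bound.

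Brown fat markers were set beside Dio2. Of 4 tested, 2 rose (5.16% over all placed genes) and limma called 0 lower (0 also at an unadjusted p under 0.05). Cox8b read 4060 and 1767 in the null pools against 1661 and 1264 in the wild-type pools, 1.83-fold, and Prdm16, a transcription factor of brown fat, 2.14-fold, with a second probe set at 0.05. Ucp1, the uncoupling protein that defines brown fat, was chosen here after its values were seen and was too dim to be tested. It read 603 and 860 in the null pools, just above the unspecific level, against 31 and 25 in the wild-type pools. This makes it at least 1.23-fold higher. Its limma adjusted p with no filter on dim probe sets, 0.0112, rests on wild-type signals within the unspecific level and does not test this bound. Elovl3, Otop1, Ppargc1a and Zic1 lay within that level on all 4 arrays. The summed signal of the 9 brown fat markers with a probe set was 10020 and 7875 in the null pools against 5818 and 6482 in the wild-type pools.

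Some markers of fat and muscle in general were higher as well, where 5.16% of all placed genes rose. Of 7 adipocyte markers tested 4 rose, 3 did not pass and limma called 0 lower (0 also at an unadjusted p under 0.05), Adipoq, Plin4, Retn and Fabp4, with summed signals of 73456 and 71313 in the null pools against 36793 and 39644 in the wild-type pools, and with Lep within the unspecific level. Of 9 skeletal muscle markers tested 3 rose, 6 did not pass and limma called 0 lower (0 also at an unadjusted p under 0.05), namely Ckm, Tnni2 and Tnnc2. The summed signals of the muscle markers were 15627 and 13479 in the null pools against 10120 and 9471 in the wild-type pools, and Myh2 lay within the unspecific level. Ckm read 220 and 478 in the wild-type pools, both within that level, so it was at least 1.91-fold higher and its call does not test this bound. Tnni2 read 1469 and 1038 in the null pools against 881 and 236 in the wild-type pools. Its second tested probe set was at a log2 ratio of -0.01. The part of fat or muscle in the Dio2 signal was not tested.

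Among genes of amines, the group of Aoc1, 10 were tested, of which 1 rose and 1 fell. Aoc3, an amine oxidase of fat, vessel and smooth muscle cells, read 1369 and 2044 in the null pools against 672 and 754 in the wild-type pools, 2.27-fold (log2 1.18 ± 0.25). The amine oxidases Maob (-0.55 ± 0.18) and Maoa (-0.22 ± 0.12) were lower in both sets and did not pass. A second tested probe set of Maoa was at 0.29. Sat1, which starts polyamine breakdown, fell by 0.33 on the log2 scale, a call lost with no filter on dim probe sets. Odc1, Srm, Azin1, Oaz1, Oaz2 and Smox, which make, control or break down polyamines, lay between -0.07 and 0.24 and did not pass. Hdc, which makes histamine, and the histamine receptors Hrh1, Hrh3 and Hrh4 lay within the unspecific level on all arrays, as did the amine transporter gene Slc18a2. Of 2 mast cell markers tested Cma1 rose 2.18-fold and Kit did not pass. Cma1 read 1018 and 1704 in the null pools against 574 and 588 in the wild-type pools. Its lower wild-type signal lay within the unspecific level and the other just above it. The 2.18-fold therefore partly compares with background, and no bound was made. Mcpt4, Tpsb2, Tpsab1, Ms4a2 and Fcer1a lay within the unspecific level. Cpa3, chosen here after its values were seen, was too dim to be tested and at least 1.69-fold higher. It read 889 and 1093 in the null pools against 177 and 447 in the wild-type pools. Summed mast cell marker signals were 28460 and 43230 in the null pools against 32594 and 45932 in the wild-type pools. Most of each sum was Kit, with 25010 and 39528 in the null pools against 30247 and 43961 in the wild-type pools. The sums therefore say little about the other markers. The part of mast cells in the Aoc1 signal was not tested.

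Of 12 calmodulin genes tested beside Pcp4, 1 rose and limma called 0 lower (0 also at an unadjusted p under 0.05). Cald1, encoding caldesmon, read 58306 and 67854 in the null pools against 45989 and 50565 in the wild-type pools, 1.30-fold, while the remaining Cald1 probe sets gave log2 ratios between -0.01 and 0.39. The calcineurin genes Ppp3ca, Ppp3cb, Ppp3cc and Ppp3r1 lay between -0.15 and 0.18 and did not pass. The relatives of Pcp4 with the same kind of calmodulin-binding motif, Pcp4l1, Nrgn and Gap43, lay within the unspecific level on all arrays. Of 3 neuron and Schwann cell markers tested limma called 0 (1 lower at an unadjusted p under 0.05), and Tubb3, Uchl1, Snap25 and Stmn2 lay within the unspecific level. Their summed signals were 37407 and 50550 in the null pools against 46332 and 58731 in the wild-type pools. Most of each sum was Sox10, with 29655 and 41315 in the null pools against 38184 and 48115 in the wild-type pools. Of 9 smooth muscle and myoepithelial markers tested 4 fell, against 3.54% over all placed genes, and 5 did not pass. Those that fell were Mylk and Myh11, encoding a myosin kinase run by calmodulin and a myosin, Oxtr, the oxytocin receptor, and Krt5, a basal keratin. Limma called 0 higher (0 also at an unadjusted p under 0.05), with summed signals of 146017 and 155506 in the null pools against 181866 and 186438 in the wild-type pools.

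Around Mb21d2, 6 genes of the Mab21 family and the cGAS pathway were tested, and 1 fell. Tbk1, the kinase downstream of STING, read 6196 and 6049 in the null pools against 7588 and 8361 in the wild-type pools and fell by 0.38 on the log2 scale, while its second tested probe set was at 0.01. The call was lost under quantile normalization, cyclic loess and no filter on dim probe sets. Limma called 0 higher (0 also at an unadjusted p under 0.05). Cgas was at 0.43 ± 0.25 and Sting1 at -0.03 ± 0.18, and neither passed. Mab21l1, Mab21l2 and Mab21l3 lay within the unspecific level on all arrays.

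**Figure D3:**
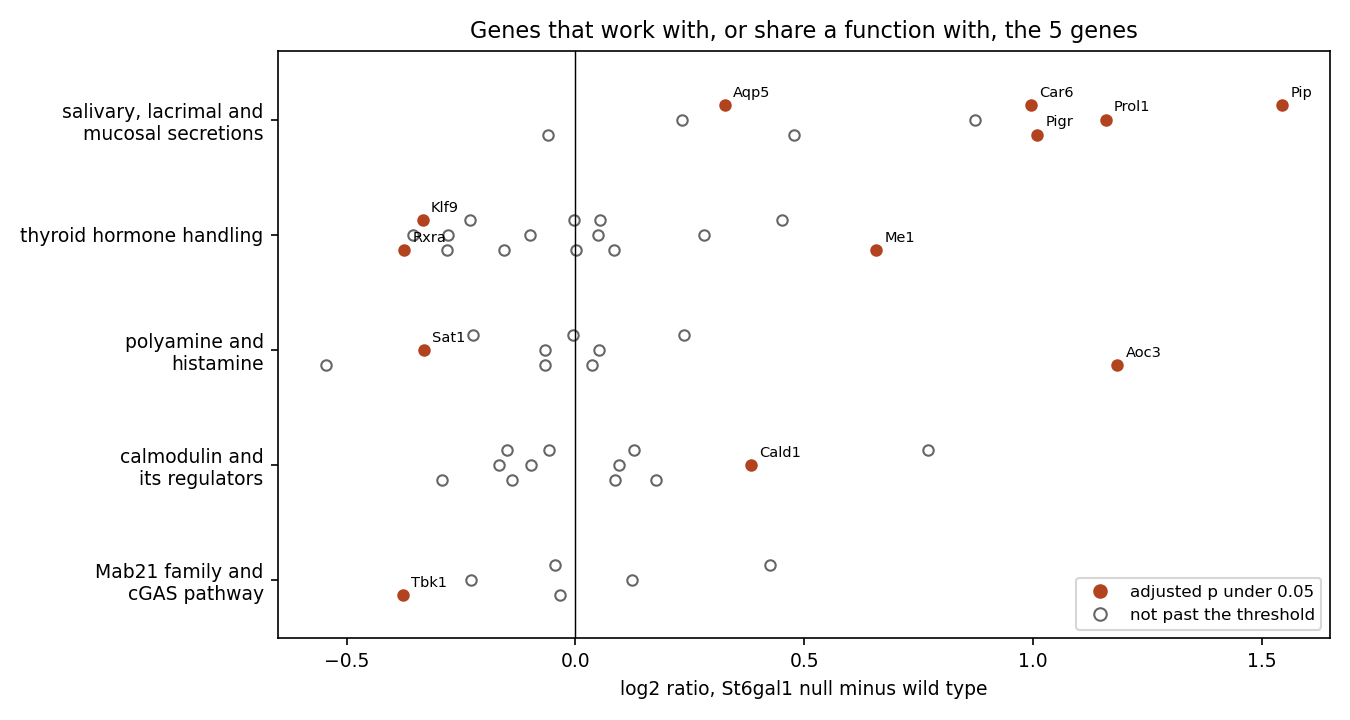
Log2 ratio of St6gal1 null over wild type for the tested genes of 5 lists, each gene by its brightest tested probe set, with filled points past an adjusted p of 0.05 and the called genes named. In the list of gland secretions 5 of 9 genes are filled, all to the right of 0, and in the other lists between 1 and 3 genes are filled.

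The profiles nearest to each gene over the 4 arrays were found by the root mean square difference of centred log2 values. This is a description of 4 points that share genotype and set, and for Aoc1, Dio2 and Mb21d2 it includes signals within the unspecific level. Some matches of Pcp4 and 2310057J18Rik were also within that level in the wild-type pools, namely Ndn (378 and 427), Pdgfd (229 and 271) and Dio2 (355 and 366). Nearest to Pcp4 were Ndn (0.07), Thbs4 (0.09) and Lum (0.14), which encode necdin, a thrombospondin and the matrix proteoglycan lumican. Nearest to Dio2 were Mup5 (0.10), Ndn (0.12) and Pdgfd (0.18), and nearest to 2310057J18Rik were Mup5 (0.18), Pdgfd (0.26) and Dio2 itself (0.27). Rarres2, encoding chemerin, was nearest to Aoc1 (0.28), with 2608 and 2402 in the null pools against 276 and 876 in the wild-type pools. Next came 2310057J18Rik (0.44) and Hc (0.48). Mb21d2 lay nearest to Bmp2k, Brinp1 and Ret (0.05, 0.05 and 0.10), each by 1 probe set that was dim in the null pools. Since Lum is a fibroblast marker, that list was counted: of 10 tested 10 rose, against 5.16% over all placed genes. Their summed signals were 336042 and 384562 in the null pools against 158860 and 164239 in the wild-type pools. The rise of Lum, 1 of the 10, was fixed by its match to Pcp4, a gene chosen by this same difference. The list was picked through that match, so the count is a description. The part of fibroblasts in the Pcp4 signal was not tested.

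The genes next to each of the 5 on its chromosome were compared, with order taken from the mouse gene table. Of the 5 nearest tested genes on each side, 50 in all, 5 rose and limma called 0 lower (6 lower at an unadjusted p under 0.05). The share that rose was 10%, against 5.16% that rose and 3.54% that fell over all placed genes (8.7% in either direction). Next to 2310057J18Rik on chromosome 10, Lama2, a laminin chain of muscle and stroma, rose 2.55-fold and Arhgap18 rose 1.43-fold. Gimap4 rose 1.75-fold near Aoc1 on chromosome 6. Near Pcp4 on chromosome 16 and Dio2 on chromosome 12 limma called 0 of 10 each (2 and 1 at an unadjusted p under 0.05). Near Mb21d2 Lrrc15, a stromal membrane protein, rose 2.35-fold and Atp13a3 1.33-fold, and the lowest log2 ratio among the 10 neighbours was -0.46, against -1.38 for Mb21d2.

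Mb21d2, Pcp4 and St6gal1 lie on the same chromosome, 16. Between St6gal1 and Mb21d2 there were 10 tested genes, of which limma called 0 (2 at an unadjusted p under 0.05), with a median log2 ratio of -0.06. Between St6gal1 and Pcp4 there were 222, of which 18 rose (8.11%) and 12 fell (5.41%), against 5.16% and 3.54% over all placed genes.

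**Figure D4:**
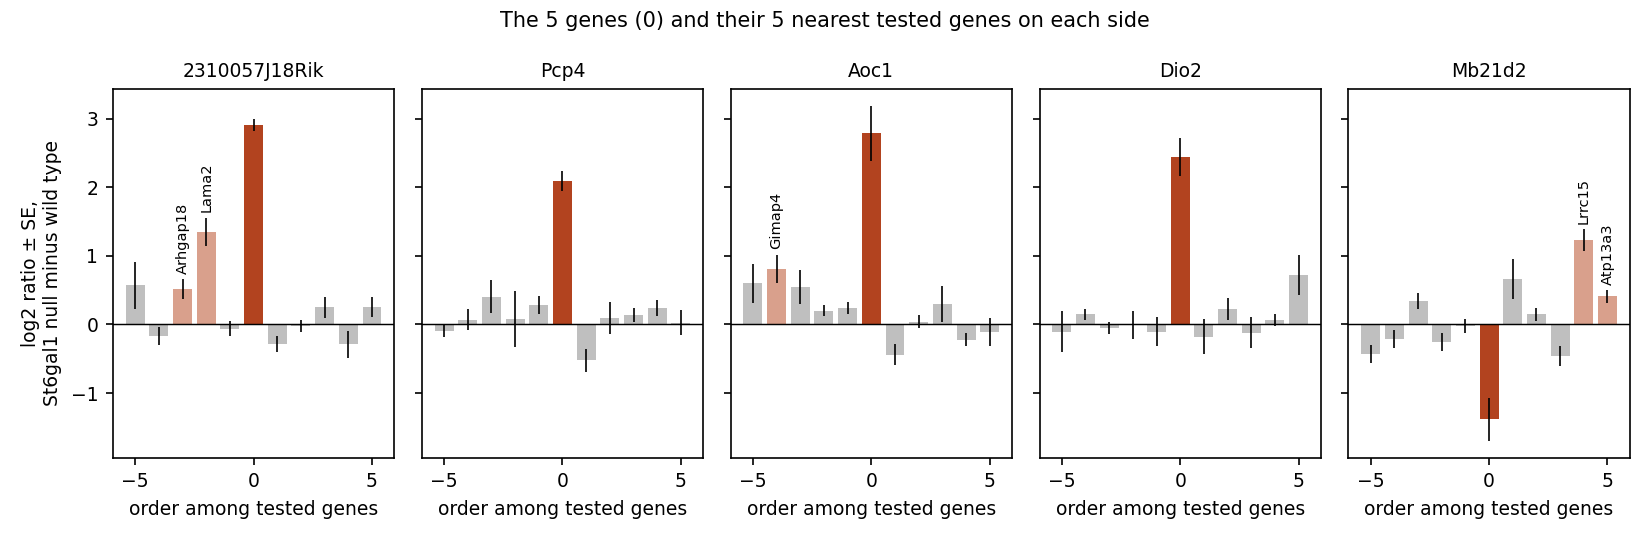
Log2 ratio of St6gal1 null over wild type with its limma SE for each of the 5 genes (dark bar at 0) and the 5 nearest tested genes on each side in chromosome order, with light red bars and names for neighbours past an adjusted p of 0.05. Mb21d2 points down at -1.38, while its neighbours Lrrc15 and Atp13a3 point up, and the tallest neighbour of 2310057J18Rik is Lama2 at 1.35.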

How the data were processed

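Per the submitters' processing notes the deposited intensities were made by the authors with MAS5, version not given in the sources used here. No genome build is named, so the gene table (GRCm38.p6) served for names and gene order. Of 45101 probe sets, 64 controls were left out. Of the rest 34945 had 1 gene symbol, 932 several and 9160 none, and 0 columns stayed unmapped.

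Intensities were logged after adding 44, their 10th percentile, which understates changes of dim genes. The brighter probe sets, whose mean reached the median (22519), were fitted with limma 3.58.1 (R 4.3.3), with set and genotype as terms and an intensity trend, leaving 1 residual degree of freedom, and p-values were adjusted by Benjamini-Hochberg over all of them. The p-values and SEs rest mostly on a spread that limma shares over probe sets of like intensity (median prior degrees of freedom 13.5, against 1 residual). The SE of 1 gene is therefore not its own spread between these pools. The set is a block because the design text pairs the pools. Deviations from group means correlated at 0.612 within sets, a value equal for both by construction. An exact permutation of 2 against 2 pools cannot go below p = 0.333. The fit was tested on simulated arrays.

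Where both arrays of a genotype lay at or below the unspecific level, folds compare the mean log2 signal of the other genotype with that level. The genes, the related lists and the marker lists (brown fat, adipocyte, fibroblast, skeletal muscle, endothelial and pericyte, smooth muscle and myoepithelial, luminal, milk, mast cell, macrophage, neuron and Schwann cell) were chosen with earlier results of these data known. Each list gene is given by its brightest tested probe set. Named were all probe sets of the 5 genes, St6gal1, the brightest Y-linked probe set, called list genes with the largest changes in the same direction in both sets (up to 6 per related list and 3 per marker list), markers within the unspecific level, the 3 nearest profiles, called neighbours and the genes next to the 2-fold limit. Genes named beyond this were chosen after their values were seen. Alternatives were quantile and cyclic loess normalization, pseudocounts of 1 and 200, no filter or the 75th percentile, no set term, no trend, each array left out, each set alone and other unspecific levels.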

Additional observations from a re-analysis of the deposited data

Results flagged for a closer look

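The Dio2 probe set 1418938_at moved in opposite directions in the sets. Its log2 ratio was -1.18 in set 1, where the null and wild-type signals of 227 and 572 both lay within the unspecific level, and 0.075 in set 2, where they were 754 and 713. With 1 pool of each genotype per set the difference between sets was not tested.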

How the results depend on the processing

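Each of the 5 genes kept its direction in all 67 alternative values of its tested probe set, and 15 of these counted as moved in size. These values reuse the signals by which the genes were chosen, so nothing is read from the kept direction. A filter at the 75th percentile left out Aoc1, Dio2 and Mb21d2 and gave no value for them. Leaving out 1 array at a time, without the set term, gave log2 ratios from 2.67 to 3.13 for 2310057J18Rik, from 1.96 to 2.22 for Pcp4, from 1.99 to 3.58 for Aoc1, from 2.30 to 2.59 for Dio2 and from -1.59 to -1.18 for Mb21d2. A pseudocount of 200 gave 1.98 for Pcp4, 2.07 for Dio2 and -1.13 for Mb21d2, and a pseudocount of 1 gave -1.48 and cyclic loess -1.35 for Mb21d2. The bound of Dio2 was 4.46-fold with each array set against its own highest Y-linked signal. It was 2.54-fold against 850, the highest signal of any gene placed on chromosome Y (Orly), a level chosen after seeing the data. For Aoc1 the bound was 3.39-fold with each array set against its own highest Y-linked signal and 1.93-fold against 850. For Mb21d2 the bound was 1.95-fold against the second highest Y-linked probe set and 1.30-fold against 850. Against the level of its own array, 357, the Mb21d2 null signal of set 1 (455) was above background, so no bound was made. The set difference of 2310057J18Rik was 0.41 without the trend, with an adjusted p of 0.15. Over all probe sets limma called 921 higher and 737 lower. With no replicate block, that is without the set term that pairs the pools, it called 0 higher and 0 lower (1261 at an unadjusted p under 0.05). Without the trend it called 0 and 0 (3512), and 0 higher and 0 lower between sets (6233). With 1 array left out it called from 2 to 21 higher and from 3 to 9 lower. Among the 53 related genes these settings called 0 higher and 0 lower each, from 0 to 0 with an array left out (from 5 to 9 at an unadjusted p under 0.05). Cyclic loess called 2 of them lower and no filter 0 lower (10 at an unadjusted p under 0.05), where more probe sets are tested. Nearest profiles by Pearson correlation shared 0 of 15 genes with those named. With 2 pools per genotype and dim signals near 585, small differences in dim genes could not be shown.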

Other observations

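The endothelial and macrophage marker lists were counted as well, where 5.16% of all placed genes rose and 3.54% fell. Of 9 endothelial and pericyte markers tested 4 rose and limma called 0 lower (0 also at an unadjusted p under 0.05). Pdgfrb rose 2.12-fold, Rgs5 1.84-fold, Esam 1.74-fold and Vwf, von Willebrand factor, 1.72-fold. Of the 9, 7 were higher and 1 lower in both sets, with a median log2 ratio of 0.76. The 1 lower in both sets was Cspg4 (-0.31), and Cdh5 was at -0.10. Neither passed. Of 7 macrophage markers tested 2 rose and 1 fell: the mannose receptor gene Mrc1 was 2.04-fold higher and the scavenger receptor gene Cd163 1.82-fold higher, while Cd14 fell by 0.44 on the log2 scale. Of the 7, 4 were higher and 3 lower in both sets, with a median log2 ratio of 0.15. Those lower in both sets were Cd14, Cd68 (-0.25) and Lyz2 (-0.09), and the last 2 did not pass. Itgam lay within the unspecific level. Summed macrophage marker signals were 117691 and 149536 in the null pools against 125102 and 154892 in the wild-type pools.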
